A study of Mus musculus with 18 samples.

Results

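The binding of mouse ATF1 to DNA with 5-hydroxymethylcytosine (5hmC) was compared with its binding to DNA with 5-methylcytosine (5mC). The assay was the protein binding microarray, where the fluorescence of a GST-tagged factor is measured at spots of double-stranded DNA. The comparison used 4 of the 18 arrays of the series, 2 with 5hmC and 2 with 5mC, taken by their labels, and the spread between replicates came from these 4 and the 2 ATF1 arrays on unmodified cytosine (C). The series also holds 6 arrays of CREB1 and 6 of JUND with the same 3 kinds of DNA. The protein in all 6 ATF1 arrays was the DNA-binding domain of mouse ATF1 with short flanks, fused to glutathione S-transferase (the GST tag) and made in a cell-free translation system, so neither the rest of the protein nor a cell was present. It was applied as the only transcription factor, so pairs with another bZIP protein were not measured. Double-stranding by primer extension put the modified base at every C of the synthesized strand and left the printed strand unmodified, so that 5mC and 5hmC DNA was hemi-modified, in every sequence context and not only at CpG. Whether the paired arrays used independently made protein is not stated in the labels, so p-values reflect only array-to-array spread, part or all of which may be technical.

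ATF1 belongs to the CREB family of basic leucine zipper (bZIP) proteins, which bind DNA as dimers, each basic region contacting one half-site. The family's known target is the cAMP response element (CRE), a palindrome of the half-site TGAC with a CpG at its centre, where methylation is known to hinder binding. C/EBP proteins are another bZIP family and bind a palindrome of the half-site GCAA. 5mC differs from cytosine by a methyl group on the ring, which thymine also carries, and 5hmC has a hydroxyl group on that methyl group. The series title names the question for CREB1, whether either modification raises binding to GCAA, and the same arrays for ATF1 allow the 2 modifications to be set against each other.

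Binding was read as the authors' z-score of each 8-base sequence (8-mer) on each array, a score with a median near 0 in which higher values mean brighter probes. All 8-mers are given 5′ to 3′ along the modified strand. The results turn on the following 8-mers, which combine the CRE half-site TGAC or its variant TGAT with the C/EBP half-site GCAA, or hold only one of the 2.
CRE palindrome: TGACGTCA
C/EBP palindrome: TTGCGCAA
CRE-C/EBP chimera: TGACGCAA
CpG-free composite: TGATGCAA
the composite read on the unmodified strand: TTGCATCA
the chimera read on the unmodified strand: TTGCGTCA
largest fall, GCAA after C: CTACGCAA
GCAA after C with a further C before it: CCCGCAAT
GCAA after T, no CpG: TTATGCAA
The chimera and the composite differ at 1 base, C4T counted from the 5′ end of the chimera, so that the composite keeps 1 modified base, the C of GCAA. For 4 of these sites the probe in the middle of the order of 5hmC minus 5mC differences is shown as its modified strand, with the site in capitals, to show how a site lay within the 35 variable bases.
composite on its probe: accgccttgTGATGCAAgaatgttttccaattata
chimera on its probe: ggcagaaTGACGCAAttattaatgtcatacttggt
CTACGCAA on its probe: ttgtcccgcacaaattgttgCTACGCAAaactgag
C/EBP palindrome on its probe: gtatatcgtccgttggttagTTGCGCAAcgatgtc

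The 2 kinds of modified array differed in brightness. The median probe signal was 4316 and 4286 with 5mC, 1472.5 and 1501 with 5hmC, and 2638.5 and 3291 without modification, or 6.16 and 7.46, 2.30 and 2.49, and 3.22 and 3.43 times the local background. A z-score is scaled within an array, so a higher z-score with 5hmC is a higher place among that array's sequences and not a brighter spot. Between 2 and 84 of 40330 probes per ATF1 array were saturated. Across 8-mers, which share probes and are not independent, replicates correlated with Pearson r of 0.951 for C, 0.878 for 5mC and 0.651 for 5hmC, and a 5mC array correlated with a 5hmC array at 0.465 to 0.524. With a z-score of at least 4 as the mark of a bound 8-mer, the number bound was 1940 ± 18.4 without modification, 794 ± 56.6 with 5mC and 334 ± 46.7 with 5hmC (mean ± SD, n = 2 arrays each). The order was the same at thresholds of 3 and 6. On both arrays of a kind, 557 8-mers were bound with 5mC and 213 with 5hmC, and 122 were in both sets, 21.9% of the 5mC set and 57.3% of the 5hmC set. The part of array brightness and of the lower replicate correlation with 5hmC in these counts was not tested.

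Most differences between the modifications were losses with 5hmC, and the largest of them lay at GCAA preceded by C. Of 65121 8-mers tested with limma, 2100 differed at a Benjamini-Hochberg adjusted p under 0.05 (3.22%), of which 453 were higher with 5hmC (0.696%) and 1647 lower (2.53%). Before adjustment 13935 had a p under 0.05. With 2 arrays against 2, an exact permutation test of 1 value cannot go below a two-sided p of 0.333, so the calls rest on limma's pooled spread. A mean z-score of 4 or more on 5mC was reached by 378 of the lower 8-mers, and on 5hmC by 36 of the higher ones. Every array moved this count. It was 760 without C replicate 1, 756 without C replicate 2, 538 without 5mC replicate 1, 343 without 5mC replicate 2, 5109 without 5hmC replicate 1 and 3484 without 5hmC replicate 2. The rises moved most. They numbered 113 and 110 without C replicate 1 or 2, 19 and 18 without 5mC replicate 1 or 2, and 1800 and 1373 without 5hmC replicate 1 or 2, and the share lower ran from 60.6% to 96.5%. With quantile normalization of the z-scores 61.4% of the called 8-mers were lower, against 78.4% in the fit above, and with log2 probe signals 45.2% were. With the arrays of CREB1 and JUND added to the estimate of spread 472 were called, and none of the 24 named 8-mers that passed the test above passed it there.

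**Figure D1:**
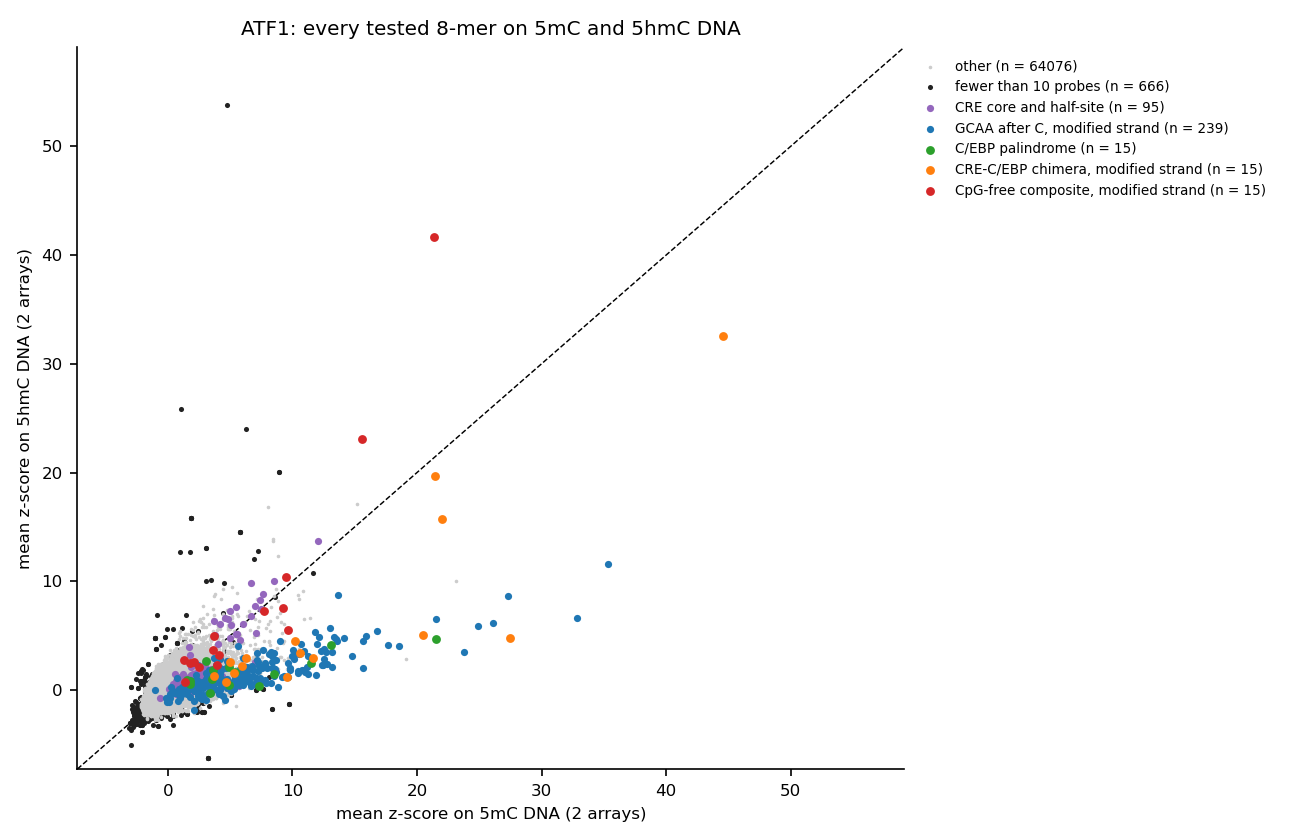
Mean z-score of ATF1 on 5mC DNA (x axis) and on 5hmC DNA (y axis) for each of 65121 8-mers, each the mean of 2 arrays, with 5 groups of sites and 8-mers on fewer than 10 probes in colour and the line of equality dashed. Most 8-mers with GCAA after C lie below the line (236 of 239 differences were negative), the composite TGATGCAA (21.4 and 41.7) lies above it, and the highest points outside the named sites are 8-mers on fewer than 10 probes.

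GCAA directly after C was bound with 5mC and largely lost that place with 5hmC. Of the 256 8-mers with CGCAA on the modified strand, 181 fell and 0 rose, against 2.53% and 0.696% of all tested 8-mers. They made up 11.0% of all 1647 falls and 0.39% of all 8-mers. Of the 378 falls from a z-score of 4 or more they made up 39.9%. Those 378 were filtered on their 5mC level, where 8-mers with CGCAA stood high, so that share is a description only. Leaving aside the chimera and the C/EBP palindrome, the remaining 239 had a mean z-score of 1.22 and 1.12 on the C arrays, 6.33 and 6.97 on the 5mC arrays, and 1.69 and 1.5 on the 5hmC arrays. The 5hmC values thus lay close to but above the unmodified ones, and both 5mC arrays lay above all others. In this list 167 of 239 fell and 0 rose, and the median difference was -4.44, against -0.04 over all 8-mers. The number bound on both arrays was 132 with 5mC, 16 with 5hmC and 13 without modification. Over all tested 8-mers these numbers were 557, 213 and 1550, so 16 and 13 are unlike shares of the bound 8-mers. The count of falls was 109 without 5mC replicate 2 and 39 with all 18 arrays in the fit.

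The 8-mers with CGCAA at different places are shifted windows over largely the same probes. Similar falls at each place are therefore not separate observations. With CGCAA starting at position 1, 2, 3 or 4, 44, 45, 49 and 43 of 64 8-mers fell at each place, with median differences of -4.62, -4.54, -5.18 and -3.85. The base before CGCAA went with the level. At the 3′ end of the 8-mer, the 16 contexts with A before CGCAA had a median z-score of 8.83 with 5mC and 3.55 with 5hmC, and 8 fell. After G the medians were 5.45 and 1.36, and 15 of 16 fell. After C they were 3.65 and 0.785, and 12 of 16 fell, and after T 3.91 and 0.874, and 8 of 16 fell. In all 4 groups the median was lower with 5hmC. CCCCGCAA, on 4 probes, was the exception among these 64 in sign, at -1.05 with 5mC and -0.0119 with 5hmC, a difference of 1.04 that did not pass the test (adjusted p = 0.33), and it was picked out after its value was seen.

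CTACGCAA had the largest fall of 8-mers on 10 or more probes. It read 10.8 and 6.19 on the C arrays, 31.9 and 33.8 on the 5mC arrays and 8.42 and 4.87 on the 5hmC arrays. The 5hmC arrays fell within or just below the unmodified range, and both 5mC arrays stood far above. The difference was -26.2 ± 2.61 (SE, limma adjusted p = 0.000788). Of its 16 probes, 4 and 5 were saturated on the 5mC arrays and none on the 5hmC arrays. Its median signal after background subtraction, 34834.75 and 33981.5 with 5mC and 2434 and 1859.5 with 5hmC, lay below saturation. On the probe files, 14 of the 16 probes fell on the log2 scale and all 16 differences were negative, from -3.32 to -0.87.

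The other 9 largest falls were all 8-mers with CGCA, a CpG whose G is the first base of GCA, and 8 of the 9 held CGCAA. TACGCAAT read 33.6 and 37.0 with 5mC and 13.7 and 9.47 with 5hmC (-23.7 ± 2.91, adjusted p = 0.00235). CGACGCAA read 24.0 and 30.9 with 5mC and 4.98 and 4.65 with 5hmC (-22.6 ± 2.32, adjusted p = 0.00088). CCCGCAAT, which was near 0 without modification (1.73 and 0.38), read 21.3 and 26.3 with 5mC and 3.62 and 3.45 with 5hmC (-20.2 ± 1.78, adjusted p = 0.000508). In each of these 3 the groups did not overlap, which was a condition for naming them. The gap between the groups was larger than the spread of either pair, which a choice by size favours. The remaining 6, CACGCAAT, CGCAATAC, ACGCAATA, TGCGCAAT, ACTACGCA and GACGCAAT, fell by 19.9, 19.0, 18.6, 16.8, 16.2 and 15.5. The 10 falls overlap in sequence and share probes, so they are not separate sites. Each kept its call in 15 of 16 alternatives, the exception being the fit of all 18 arrays.

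The C/EBP palindrome TTGCGCAA, the textbook C/EBP target with GCAA on both strands, followed the same pattern at a lower level. It read 4.22 and 2.90 without modification, 12.1 and 14.1 with 5mC and 3.74 and 4.54 with 5hmC. The 5hmC arrays lay inside or just above the unmodified values. The difference was -8.95 ± 1.22 (adjusted p = 0.00396, and 0.139 with all 18 arrays in the fit). None of its 17 probes was saturated on any modified array, and all 17 had a lower log2 signal with 5hmC, 9 of them past the test (median -1.27). Of the 15 8-mers with TTGCGCA or its reverse complement, 9 fell and 0 rose, with list means of 6.20 and 6.58 on the 5mC arrays and 1.87 and 1.46 on the 5hmC arrays.

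GCAA after a base other than C changed less. Of the 8-mers with TGCAA outside the lists of whole sites, 198 held it on the modified strand only. Their means were 3.40 and 3.69 with 5mC and 2.44 and 2.10 with 5hmC, and the median difference was -1.09. Of these 198, 32 fell (16.2%) and 1 rose (0.5%), against 2.53% and 0.696% of all tested 8-mers. That count of falls was 15 and 6 without 5mC replicate 1 or 2, and 9 and 10 without C replicate 1 or 2. In 510 8-mers with AGCAA or GGCAA the means were 1.03 and 1.17 with 5mC and 0.477 and 0.581 with 5hmC. Of these 510, 30 fell (5.9%) and 0 rose, and the median difference was -0.52. In 48 further 8-mers with TGCAA on both strands, 2 fell (4.2%) and 0 rose, and the median difference was -1.05. By context, the median difference over the 16 8-mers ending in ATGCAA was -0.54, with 1 rise and 0 falls, whereas over the 16 ending in ACGCAA it was -4.67, with 0 rises and 8 falls.

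**Figure D2:**
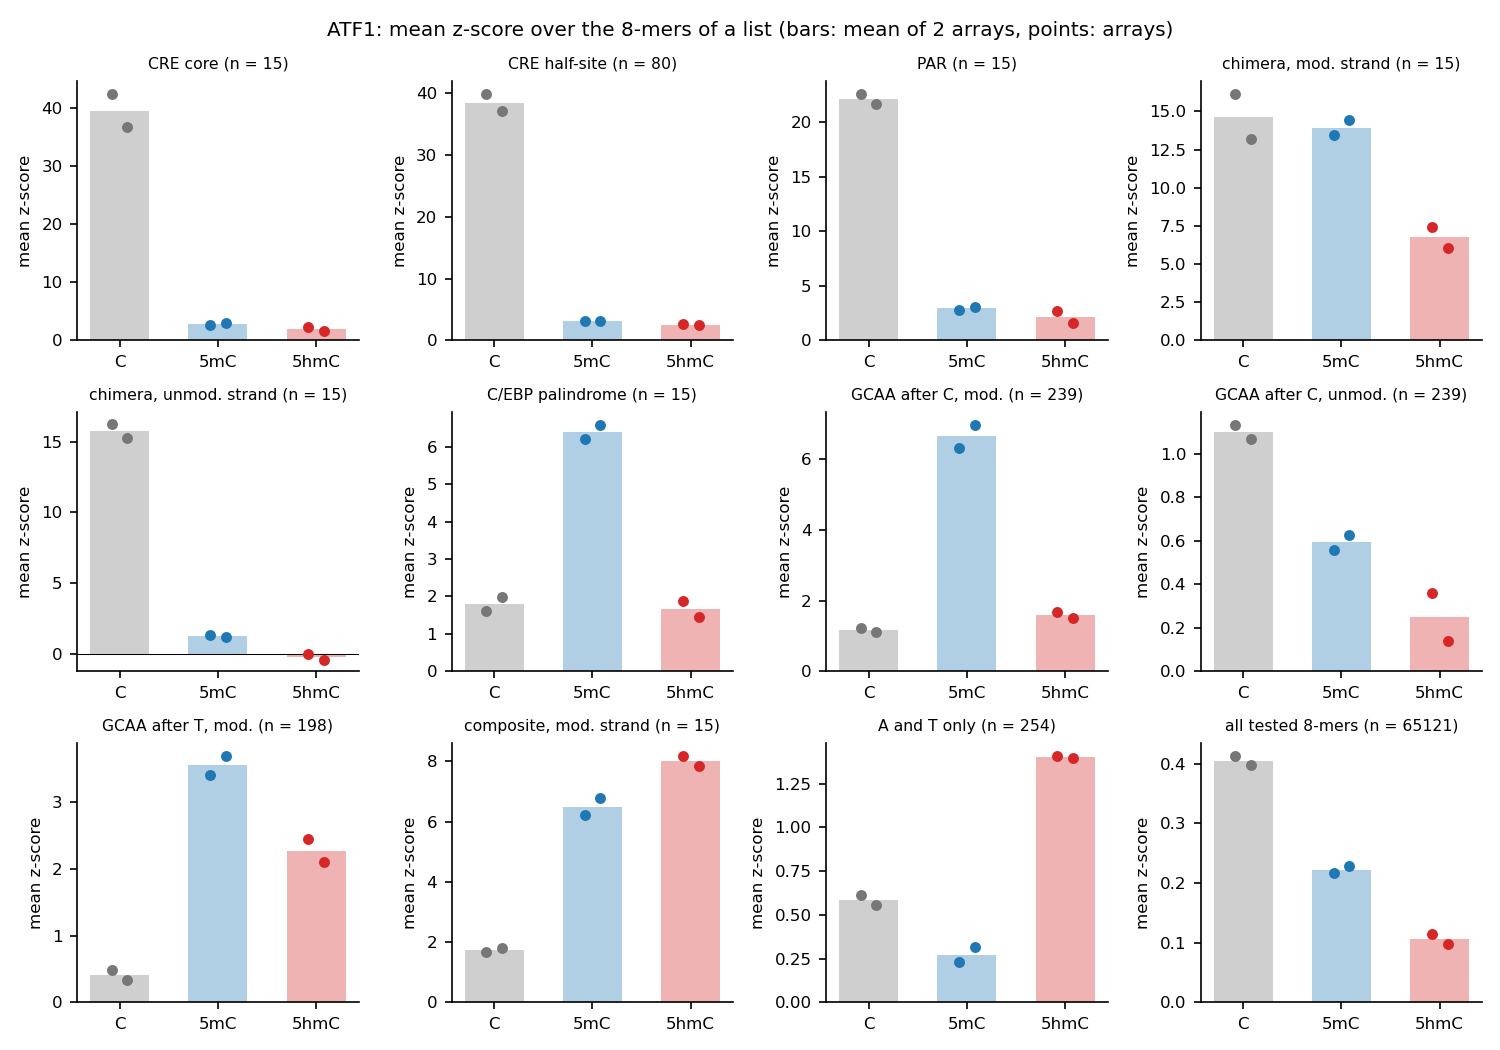
Mean z-score over the 8-mers of 12 lists on unmodified (C), 5mC and 5hmC DNA, with bars for the mean of 2 arrays, points for each array, and a y axis of its own for each panel. GCAA after C on the modified strand stands at 6.33 and 6.97 only with 5mC, the CRE lists stand high only without modification, and the composite list and the A and T list are highest with 5hmC. In the composite list 1 of 15 8-mers rose, TGATGCAA by 20.3, and the median difference was 0.07.

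The strand that carried the modification went with the result. When CGCAA lay on the unmodified strand, so that the modified strand read TTGCG, 9 of 239 8-mers fell and 0 rose, with list means of 0.558 and 0.627 with 5mC and 0.359 and 0.138 with 5hmC, all near 0. CTACGCAA read from the other strand was at 1.21 and 1.44 with 5mC and 0.16 and -0.01 with 5hmC (adjusted p = 0.311). For the chimera list, 7 of 15 8-mers fell when it was written on the modified strand and 0 of 15 when it was written on the unmodified strand. Its means with 5mC were 13.4 and 14.4 on the modified strand and 1.32 and 1.21 on the unmodified strand. With levels this low with 5mC, a fall of like size could not have been seen on the unmodified strand, for CGCAA as for the chimera. The strand thus went with the level with 5mC, and the counts of falls add no separate evidence. Among probes, 313 of 1193 with CGCAA on the modified strand were lower with 5hmC and 14 higher, whereas of 1243 with TTGCG there 105 were lower and 81 higher. These are to be read against 4.75% lower and 8.1% higher over all 40330 probes.

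One of the sites named above moved the other way. The CpG-free composite TGATGCAA read 4.61 and 4.99 without modification, 18.3 and 24.5 with 5mC and 42.9 and 40.5 with 5hmC. Both 5hmC arrays lay above both 5mC arrays, and all 4 lay above the unmodified pair. The rise was 20.3 ± 3.18 (SE, limma adjusted p = 0.00754), the largest of any 8-mer on 10 or more probes. It ranked 2 of all tested 8-mers with 5hmC, 14 with 5mC and 1373 without modification. The call was kept in 14 of 16 alternatives. It was lost without 5mC replicate 1, the lower of that pair (difference 17.2, adjusted p = 0.0938), and with all 18 arrays in the fit (adjusted p = 0.581).

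The raw files show what that rise consists of. Over the 17 probes with TGATGCAA, the median signal after subtraction of the local background was 20907 and 25094.5 on the 5mC arrays and 8835.5 and 9050 on the 5hmC arrays, so the spots themselves were dimmer with 5hmC. Relative to the median of the same array the order was reversed, 5.83- and 6.85-fold with 5mC against 10.9- and 10.3-fold with 5hmC, and 2.11- and 2.23-fold without modification. On each 5mC array 2 of the 17 probes were saturated, and on each 5hmC array 1. On the log2 scale, with each array centred on its median, 16 of the 17 probes were higher with 5hmC and 9 passed the test with 0 lower, against 8.1% higher over all probes, and the differences ran from -0.33 to 2.47 with a median of 0.96. That median stood 0.74 above the median of all probes. The probe printed above read 26963 and 27204.5 with 5mC and 10860 and 9750.5 with 5hmC in raw signal, and 0.96 ± 0.28 higher with 5hmC on the centred log2 scale (adjusted p = 0.0378).

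The base after the composite went with the size of the difference, although the groups are small. All 4 probes with TGATGCAA followed by T rose (1.16 to 2.47, median 1.94), as did 2 of 5 followed by C (median 0.88), 1 of 3 followed by A (0.58) and 1 of 4 followed by G (0.21). The 1 probe with the site at the end of the variable part also rose (1.28). On each 5mC array 2 of the 17 probes were saturated, so the differences at such probes are not exact. The 8-mer GATGCAAT, shifted by 1 base and ending in that T, had mean z-scores of 15.6 with 5mC and 23.1 with 5hmC and did not pass the test (difference 7.51, adjusted p = 0.114). GATGCAAC, ending in C, had 9.65 and 5.52 (adjusted p = 0.229). No difference between these groups of probes was tested.

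The whole 8-mer rose, and none of its 1-base variants passed the test. Of 24 single-base variants of TGATGCAA, 0 rose and 0 fell, and 5 reached a mean z-score of 4 with 5hmC. The highest was the chimera at 32.5, followed by TTATGCAA at 8.39, CGATGCAA at 7.5, and then TGATGCAT (A8T) at 4.96 and TGATGTAA (C6T) at 4.82. The last has no C and so no modified base within it, although any C around it on its probes was modified. Its mean was 1.23 with 5mC. TTATGCAA, which keeps GCAA after AT and loses the TGA of the CRE half-site, read 7.49 and 6.84 with 5mC and 7.81 and 8.96 with 5hmC, and 2.65 and 2.52 without modification. It was thus well above its unmodified level with both modifications, and its difference of 1.22 ± 1.04 did not pass the test (adjusted p = 0.532). Over the 15 8-mers of the composite list on the modified strand, 1 rose and 0 fell, the median difference was 0.07, and the means were 6.21 and 6.77 with 5mC and 8.18 and 7.84 with 5hmC. On the unmodified strand the composite (TTGCATCA) read 0.80 and 0.51 with 5mC and -1.0 and 0.08 with 5hmC, against 3.15 and 4.15 without modification.

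**Figure D3:**
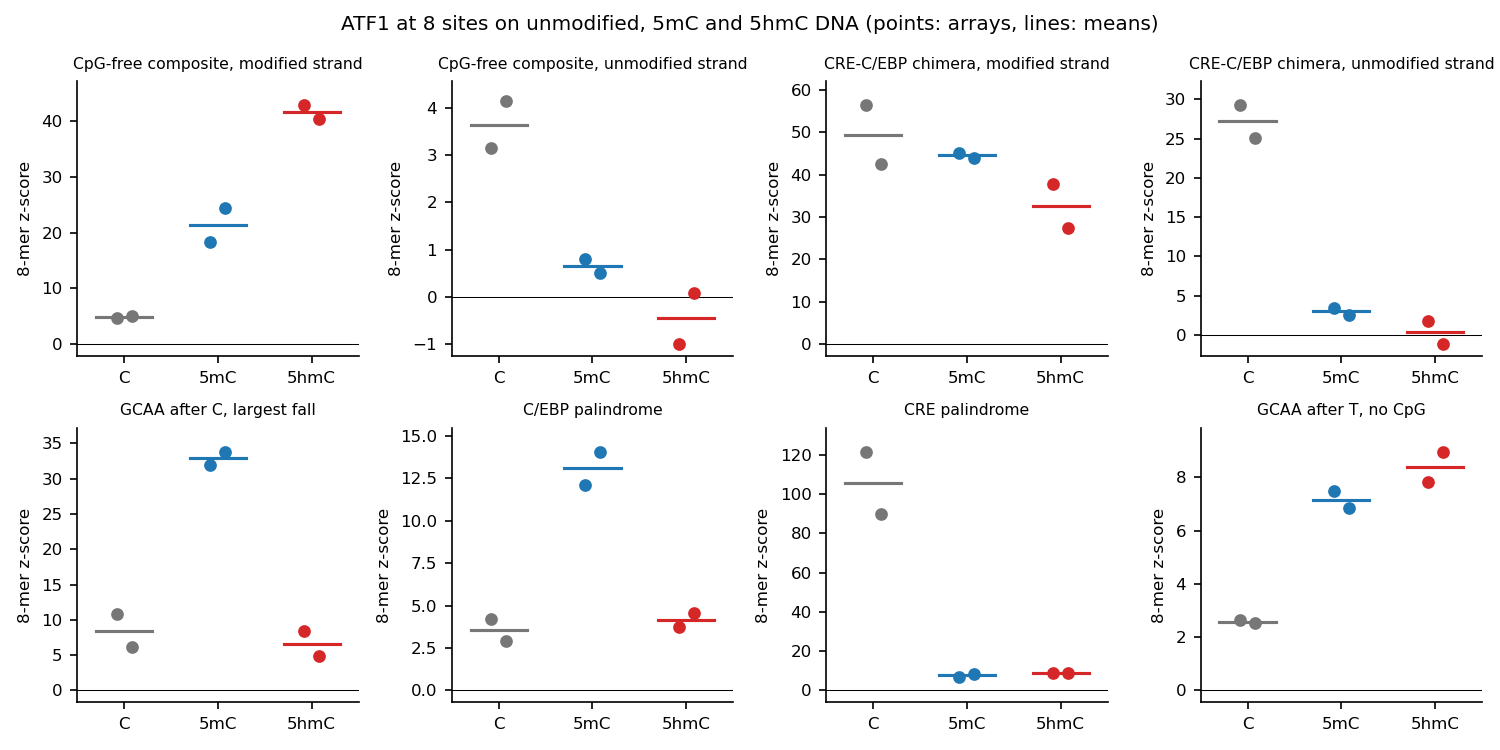
z-score of ATF1 at 8 sites on unmodified (C), 5mC and 5hmC DNA, with 1 point per array, a line at the mean of the 2 arrays, and a y axis of its own for each panel. The composite on the modified strand climbs from 4.61 and 4.99 to 42.9 and 40.5, whereas the C/EBP palindrome and the GCAA site with the largest fall are high only with 5mC.

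The chimera TGACGCAA, which differs from the composite by C4T and so carries a modified base in a central CpG, was among the strongest sites on every kind of DNA. It read 56.4 and 42.4 without modification, 45.1 and 44.0 with 5mC and 37.8 and 27.3 with 5hmC, and ranked 1 with 5mC and 3 with 5hmC. Both 5hmC arrays lay below both 5mC arrays, but the 2 unmodified arrays differed by about as much. The difference of -12.0 ± 4.22 did not pass the test (adjusted p = 0.128). It passed with quantile normalization (adjusted p = 0.000892), with the replicate number as a block (0.0462) and without 5hmC replicate 1 (0.0322). Of its 17 probes 5 and 6 were saturated with 5mC, and 4 rose and 4 fell on the log2 scale. The signal at this site was 11.8- and 10.2-fold the array median with 5mC and 7.04- and 6.01-fold with 5hmC.

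Set side by side, the 2 sites changed places. With 5mC the chimera stood above the composite on both arrays (45.1 and 44.0 against 18.3 and 24.5), and with 5hmC the composite stood above the chimera on both (42.9 and 40.5 against 37.8 and 27.3). z-scores of different 8-mers come from different probes, so these orders describe the arrays and carry no test. Among the 24 single-base variants of the chimera, 1 rose, the composite, and 3 fell: CGACGCAA (T1C), GGACGCAA (T1G; 5.32 to 1.52, adjusted p = 0.021) and TAACGCAA (G2A; 7.15 to 2.74, adjusted p = 0.0433). The number of variants with a mean z-score of 4 or more was 14 with 5mC and 7 with 5hmC. Over the 15 chimera 8-mers on the modified strand, all 15 differences were negative, 7 fell, and the list means were 13.4 and 14.4 with 5mC and 7.44 and 6.05 with 5hmC, against 16.2 and 13.2 without modification. On the unmodified strand the chimera TTGCGTCA read 29.3 and 25.1 without modification, 3.40 and 2.57 with 5mC and 1.81 and -1.16 with 5hmC (adjusted p = 0.44 between the modifications).

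**Figure D4:**
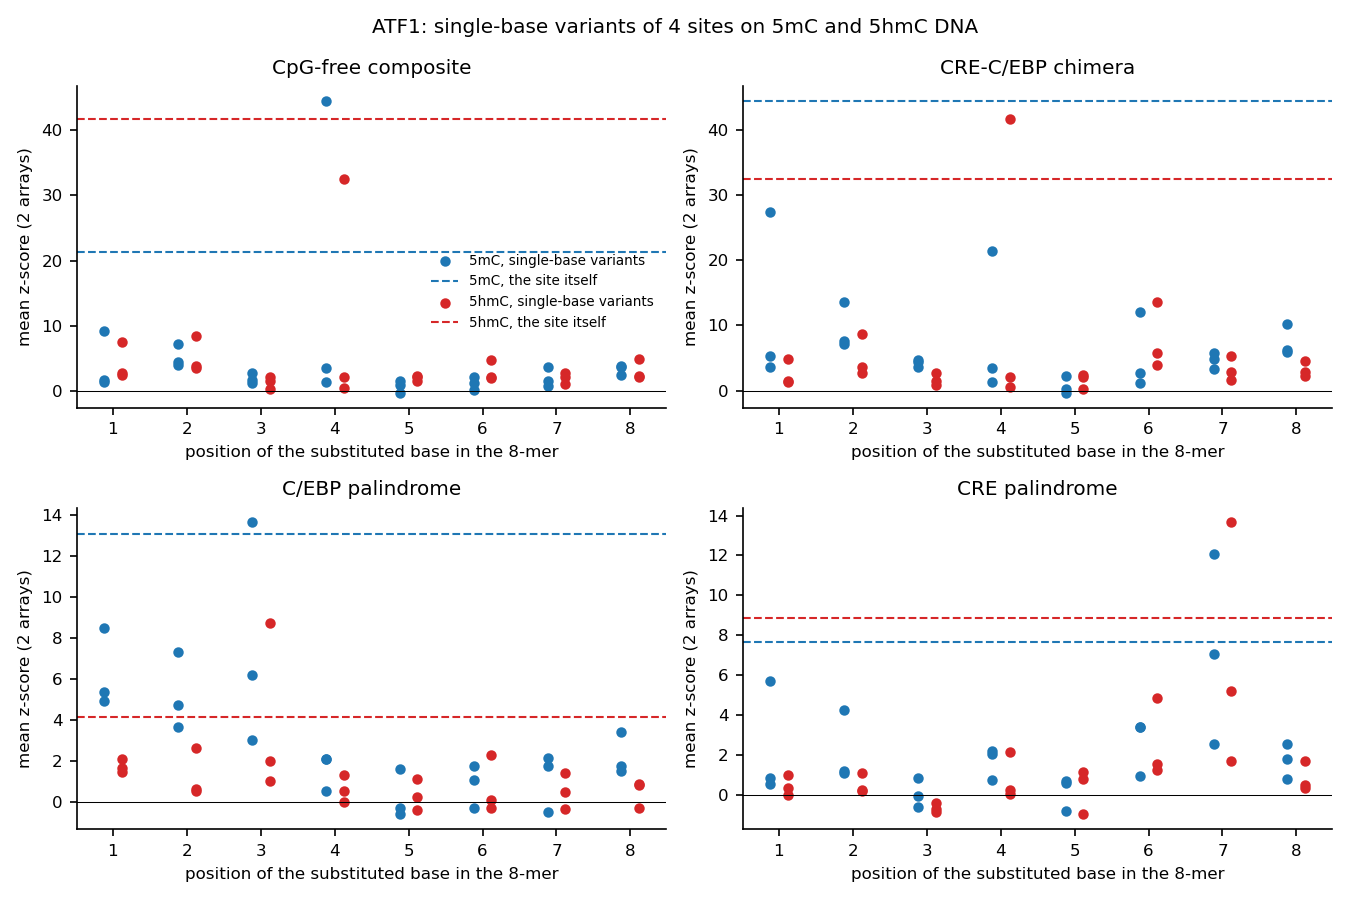
Mean z-score (2 arrays) of the single-base variants of 4 sites on 5mC and 5hmC DNA, by the position of the substituted base counted from the 5′ end, with 3 variants per position and dashed lines for the site itself. Most variants of the composite and the chimera lie below 10 with either modification, and the exception common to both panels is position 4, where each site is a variant of the other.

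At CRE sites, the known targets of ATF1, no 8-mer separated the 2 modifications by the test. TGACGTCA read 121 and 89.7 without modification, 6.69 and 8.59 with 5mC and 8.94 and 8.77 with 5hmC. Both modified pairs lay far below the unmodified pair, and the gap between them was smaller than the spread of the 5mC pair. The difference was 1.21 ± 6.83 (adjusted p = 0.939), and the spread was widest on the unmodified arrays (SD 22.4, n = 2), on which 11 and 12 of its 19 probes were saturated. A difference of a few units could not have been detected there. On the log2 scale, 6 of the 19 probes with TGACGTCA were higher with 5hmC and 0 lower, against 8.1% and 4.75% of all probes. Their median difference was 0.20, against 0.21 over all probes. Of the 572 probes with TGACGT or its reverse complement, 6.3% were higher and 11.9% lower. Of the 15 8-mers of the CRE core list and the 80 of the half-site list 0 passed in either direction. Over all tested 8-mers 3.22% passed, so few or none were to be looked for in lists this small. The median differences were -0.82 and -0.78, and the list means 2.89 ± 0.229 and 3.12 ± 0.0591 with 5mC and 1.96 ± 0.443 and 2.56 ± 0.0726 with 5hmC (SD, n = 2). The unmodified arrays, with list means of 39.58 ± 4.087 and 38.45 ± 1.983, also entered the spread, so small differences could have been missed. On the asinh scale, which compresses high z-scores, 3 core and 16 half-site 8-mers were lower and 3 half-site 8-mers higher. TGACGTAA, a CRE half-site joined to that of the PAR bZIP proteins, kept the highest z-score of the ACGT sites named here, at 12.2 and 12.0 with 5mC and 15.7 and 11.6 with 5hmC (adjusted p = 0.807). None of the 15 PAR, 16 AP-1 and 48 E-box 8-mers passed, which in lists this small is near the 3.22% of all tested 8-mers. Of 1120 other 8-mers with ACGT 22 fell (2.0%, against 2.53% of all tested 8-mers) and 0 rose (median difference -0.39). The share of falls there was near that of all 8-mers.

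Over all tested 8-mers, the sites above included, the difference went with the number of C, that is of modified bases, from 0 to 4 C. The median difference was 0.61 for the 6556 8-mers with no C on the modified strand, 0.25 with 1 C, -0.11 with 2, -0.35 with 3 and -0.50 with 4. The shares that rose were 2.9%, 0.9%, 0.2%, 0.1% and 0.3%, and the shares that fell 0.2%, 0.6%, 2.2%, 4.3% and 7.0%. The share of falls was thus higher at each step up to 4 C and slightly higher again with 5 C, and it dropped with 6 C. The order of the medians did not go on beyond 4 C. With 5 C (1319 8-mers) the median was -0.49, with 6 C (171) 0.33 and with 7 C (9) 5.5, and 1.4%, 8.2% and 55.6% rose while 7.7%, 2.9% and 0 fell. On 10 or more probes, the 90 8-mers with 6 C had a median of -0.05, with 3 falls. By CpG the medians were 0.11, -0.23, -0.58 and -0.85 for 0 to 3 CpG. These 8-mers overlap and share probes, so the trend is a description. The 8-mers without C had means of 0.326 and 0.261 on the C arrays, 0.0998 and 0.0731 on the 5mC arrays and 0.706 and 0.658 on the 5hmC arrays, which are small values on a scale where 4 was called bound, and 27 of them were bound on both 5hmC arrays and 2 on both 5mC arrays. Of these 8-mers 192 rose and 13 fell. The count of rises was 0 without 5mC replicate 1 and 1 without 5mC replicate 2, and 40 and 36 without C replicate 1 or 2, and 565 and 438 without 5hmC replicate 1 or 2.

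**Figure D5:**
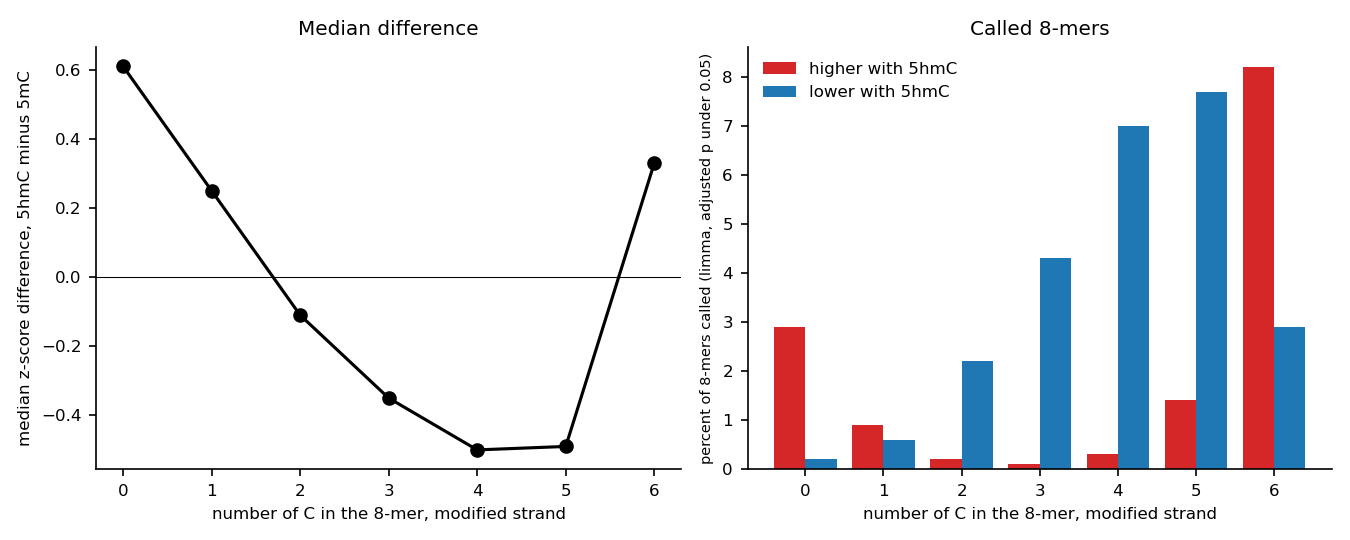
Left, median z-score difference (5hmC minus 5mC) of 8-mers by the number of C on the modified strand. Right, the percentage of these 8-mers called higher or lower with 5hmC by limma at an adjusted p under 0.05, where falls grow from 0.2% with no C to 7.0% with 4 C. The rises at 6 C come from 8-mers on fewer than 10 probes.

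Sequences of A and T alone hold no C on either strand and so no modified base within them. Any C around them on the modified strand of their probes was still modified, so their values are not those of unmodified DNA. Of 254 such 8-mers 32 rose (12.6%, against 0.696% of all tested 8-mers) and 0 fell (against 2.53%), 227 differences were positive, and the means were 0.229 and 0.317 with 5mC and 1.41 and 1.39 with 5hmC, against 0.616 and 0.556 without modification. Without 5mC replicate 1 or 2, 0 of them were called, without C replicate 1 or 2, 7 and 6, and without 5hmC replicate 1, 57. TTAATTAA, the key 8-mer of this kind, read -0.22 and -0.48 with 5mC and 0.62 and 0.57 with 5hmC, a difference of 0.938 that did not pass (adjusted p = 0.232). Of 48 homeodomain 8-mers (TAATTA) 4 rose, and of 96 GATA and 95 ETS 8-mers 2 and 0 rose, with 0 falls in all 3 lists. These are shares of 8.3%, 2.1% and 0, against the same 0.696%, and rest on 4 and 2 8-mers. Ordered by mean difference, tetranucleotides without C all lay in the upper part. The lowest of them was AGAG (-0.094, rank 130 from the lowest), and every tetranucleotide below it held C. Above it both kinds occurred. The mean difference was highest for TTTT (0.756), ATTT (0.583), TGAT (0.544), TTTA (0.530) and TTTG (0.524), and lowest for CGCA (-2.15), GCAA (-1.77), ACGC (-1.53), GCGC (-1.02) and CTAC (-0.985). None of the 5 highest contains C and all of the 5 lowest do. The order did not follow the number of C, as CCCC stood at 0.266. CGCA, GCAA and ACGC also overlap within ACGCAA, so they are not separate cases. TGAT is the part of the composite that stands in for TGAC, and its 8-mers had means of 1.13 without modification, 0.480 with 5mC and 1.02 with 5hmC.

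Besides the composite, the 9 other largest rises on 10 or more probes were small. In all 9 the mean with 5mC was below the unmodified mean, and in 8 of the 9 the mean with 5hmC was above it, the exception being CGTGTAAT (7.88 without modification and 6.54 with 5hmC). ATGATGAT read 6.59 and 8.06 without modification, 3.17 and 4.42 with 5mC and 8.61 and 9.01 with 5hmC (5.01 ± 1.15, adjusted p = 0.0383). AGTGATGT read 6.47 and 4.35, 3.91 and 3.53, and 7.87 and 9.37 in the same order (4.90 ± 1.12, adjusted p = 0.0383). TATGATGT read 3.41 and 3.02, 0.51 and 1.46, and 5.55 and 5.40 (4.49 ± 0.725, adjusted p = 0.00879). In each the 5mC arrays were the lowest and the 5hmC arrays the highest, where no overlap between these groups was a condition for naming. TGATGATG, TGTAATAA, GTGTAATC, GTGATGCT, CGTGTAAT and TGAGTAAT rose by 4.86, 4.31, 4.27, 3.99, 3.93 and 3.86. Of the 15 8-mers on 10 or more probes that rose and had a mean of 4 or more with 5hmC, 8 had no C, 7 had 1 C, and 0 had more. In 12 of the 15 the sequence held TGAT or TGTAA, motifs read off these same 8-mers, so that their count is a description only. Each of these 9 calls was lost in 2 to 9 of 16 alternatives, against 1 of 16 for each of the 10 largest falls. For ATGATGAT the adjusted p was 0.264, 0.149, 0.0539 and 0.0768 without 5mC replicate 1, 5mC replicate 2, 5hmC replicate 1 and 5hmC replicate 2. For AGTGATGT it was 0.162, 0.238, 0.0503 and 0.0837 without 5mC replicate 1, 5mC replicate 2, C replicate 2 and 5hmC replicate 2, and TATGATGT lost its call without 5mC replicate 1 (0.102).

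The remaining 21 of the 36 rises to a mean of 4 or more came from 8-mers with 4 or more C that lay on fewer than 10 probes. Some of these overlap on the same spot, so the 21 are not separate cases. CGCCCCCA, TCACCCCG, GCCCCCAG, CCCCCAGG and CCGCCCCC, each on 1 probe, had the same values on every array. CCCCCGGC, on 1 probe, had the highest z-score of all 8-mers with 5hmC. It read 34.2 and 34.3 without modification, 4.69 and 4.80 with 5mC and 52.1 and 55.4 with 5hmC (49.0 ± 3.01, adjusted p = 6.23e-05). CCCCGGCC, on 2 probes, read 16.3 and 15.8, 1.00 and 1.04, and 25.1 and 26.7, and AGTCCCCC, on 1 probe, 15.3 and 14.4, 5.19 and 7.31, and 23.4 and 24.5. The 2 arrays of a pair differed little, but each value is that of 1 or 2 spots. Among 8-mers with 4, 5 or 6 C on 10 or more probes, 0 rose, while 358, 76 and 3 fell. What these few probes share besides their C-rich sequence was not tested.

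Single probes were tested on a log2 scale, where a difference is a fold, and the balance of all calls was the opposite of that of the 8-mers. Of 40330 probes 3267 were higher (8.1%) and 1917 lower (4.75%) with 5hmC after centring on the array median. The direction of this balance changed with the treatment of background. With no background correction 62.5% of 9969 called probes were lower, with subtraction and a floor of 50 94.5% of 382, and with quantile normalization 62.1% of 882, against 37.0% in the fit above, and the median difference of all probes was 0.213, 0.02, -0.195 and 0.055 in the fit above and these 3. The count was 2127 and 841 without 5mC replicate 1 or 2, and 2333 and 1546 without 5hmC replicate 1 or 2, where 73.1% and 79.0% of the calls were lower. Relative to the median of all probes, the median difference was -1.18 for the 1193 probes with CGCAA on the modified strand, -0.44 for 1204 with TGCAA, -0.33 for 572 with TGACGT or its reverse complement and -0.23 for 1243 with TTGCG.

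The 4 probes with the largest falls were bright with 5mC and dim with 5hmC. They are shown as their modified strand, with any bZIP motif of the lists in capitals.
fall 1: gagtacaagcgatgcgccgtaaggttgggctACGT
fall 2: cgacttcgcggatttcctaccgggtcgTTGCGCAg
fall 3: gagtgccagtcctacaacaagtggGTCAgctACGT
fall 4: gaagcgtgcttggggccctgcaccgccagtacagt
Fall 1 read 33865 and 34524 with 5mC and 1295 and 911 with 5hmC in raw signal (-4.33 ± 0.45 on the log2 scale, adjusted p = 0.000516). Fall 2, which holds TTGCGCAG, read 30916 and 33302 with 5mC and 1098.5 and 1587 with 5hmC (-4.26 ± 0.50, adjusted p = 0.00104). Falls 3 and 4 differed by -4.23 and -4.14, and fall 4 holds none of the listed motifs. The 4 largest rises, of 4.05 to 4.51, were at probes with none of these motifs. Their raw signals on the 4 modified arrays lay between 548.5 and 4211, against local backgrounds of 106 to 1985.5. In 2 of the 4 the raw values of the groups overlapped, one of them reading 573.5 and 2126 with 5mC and 1338 and 2486 with 5hmC. With subtraction and a floor of 50 in place of normexp, 3 of the 4 rises lost the call (adjusted p = 0.0848, 0.0657 and 0.0924), as did fall 1 (0.0617), and 1 of the 3 also did with quantile normalization (0.052).

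CREB1, the closest relative of ATF1 in the series, was tested for a different response. For no 8-mer did the 5hmC minus 5mC difference of ATF1 differ from that of CREB1 in limma over the 12 arrays of both proteins (0 called, 0%, with 3286 at an unadjusted p under 0.05 and a lowest adjusted p of 0.973). With quantile normalization 8 were called. Leaving out 1 array gave 97 without CREB1 5mC replicate 2, 10 without ATF1 5hmC replicate 1, and 1 each without CREB1 5hmC replicate 1 and ATF1 5hmC replicate 2. At TGATGCAA CREB1 read 56.8 ± 28.3 with 5mC and 139 ± 35.7 with 5hmC (SD, n = 2), a difference of 81.8 against 20.3 for ATF1, and the difference between the proteins was -61.5 ± 15.8 (SE, adjusted p = 0.973). At CTACGCAA CREB1 differed by -72.4 and ATF1 by -26.2, and at TTGCGCAA by -19.0 and -8.95 (adjusted p = 0.973 for both). In these 3 sites both proteins had the same sign. The 2 CREB1 arrays of a group differed widely, so the test leaves room for sizeable differences between the proteins, and z-scores of the 2 proteins are scaled to different arrays.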

How the data were processed

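Per the file headers, the deposited probe files give the intensity of each spot (median, linear scale) beside its local background, and the authors' table gives a z-score, a score whose derivation no label or header records. The scanner is not stated. Over the 6 ATF1 arrays the z-score followed the median signal of the probes with the 8-mer in the synthesized strand (rho 0.961 to 0.969, Spearman) more than in the printed strand (0.128 to 0.418). A median of 17 probes carried an 8-mer. The 409 8-mers on no probe were left out.

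limma 3.58.1 in R 4.3.3 fitted the 6 ATF1 arrays with 1 mean per group and a mean-variance trend (3 residual and 9.4 prior degrees of freedom), two-sided, with Benjamini-Hochberg adjustment at 0.05, and was tested on simulated data. Probe signals were corrected by normexp (offset 50), put on the log2 scale and centred on the array median. Signals of 65000 or more counted as saturated. Python 3.11.15 did the rest. Named were 12 key 8-mers, the 10 largest rises and falls that passed on 10 or more probes without overlap, the 5 highest with 5mC and with 5hmC, 1-base variants of 4 sites, the 5 extreme tetranucleotides at each end, and the 4 probes with the largest rise and fall. GCAA contexts, next bases, shown probes and the motifs TGAT and TGTAA were added after values were seen. The members and lists were chosen with earlier results of these data known.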

Additional observations from a re-analysis of the deposited data

How the results depend on the processing

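The count of 2100 8-mers was 472 with all 18 arrays, 575 with only the 4 arrays of 5hmC and 5mC, 9750 with median log2 probe signals, and 343 to 5109 leaving out 1 array. The count of 5184 probes was 9969, 382 and 882 with no background correction, a floor of 50 and quantile normalization, and 841 to 5661 leaving out 1 array. The count of 0 8-mers that differed between ATF1 and CREB1 was 8 with quantile normalization and 0 to 97 leaving out 1 array. With a z-score of 3 or more, 3066, 1697 and 839.5 8-mers were bound on C, 5mC and 5hmC, and with 6 or more 974.5, 282 and 117.5.

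With all 18 arrays, falls numbered 39 (GCAA after C), 0 (chimera), 3 (C/EBP palindrome) and 3 (GCAA after T), and rises 43 (no C) and 7 (A and T only). With 4 arrays they were 2 for GCAA after T, 24 for no C and 4 for A and T only. With log2 signals the chimera had 11 falls and GCAA after T 56, no C 1112 rises and A and T only 76. GCAA after T had 8 falls on the asinh scale and 56 with a mean z-score of 2 or more, and no C 393 rises with quantile normalization. Leaving out 1 array gave 109 to 171 falls for GCAA after C, 6 to 42 for GCAA after T, 0 to 565 rises for no C and 0 to 57 for A and T only. The median difference with no C was 0.72, 0.47, 1.26 and 0.31, and with 4 C -0.43, -0.39, -2.15 and -0.11, with quantile normalization, asinh, a mean z-score of 2 or more, and log2 signals.

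With the replicate number as a block (replicate block) 2825 8-mers, 5435 probes and 0 differences from CREB1 were called. The correlation of the deviations of same-numbered arrays was 0.196 between C and 5hmC, -0.044 between C and 5mC and -0.09 between 5mC and 5hmC. Not every pair was above 0.1, so the arrays were treated as sharing only a number. CCACGTGG changed sign with log2 signals (-0.0186), without 5mC replicate 1 (-0.00862) and without 5hmC replicate 1 (-0.479, the lowest of -0.479 to 0.811 leaving out 1 array), TGACGTAA with orientations merged (-0.773) and without 5hmC replicate 1 (-0.467, in a range of -0.467 to 3.67), and TTGCATCA with orientations merged (9.59), where it is averaged with TGATGCAA. None of these passed the test as reported. Of 540 values of named 8-mers under alternatives 467 kept direction and side of the threshold, 60 lost the call and 7 gained it. The filter of 1.5 times the background kept every probe. The cause of these changes was not tested. Replicates were least alike with 5hmC (r = 0.651 over 8-mers), where the median signal was 2.30 and 2.49 times the local background.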
